A study of Mus musculus with 7 samples.

Results

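Immunoglobulin-like cell adhesion molecules were followed in mouse pancreatic mesothelial cells that had grown in tumours and in the cultured cells of the same origin. The family was taken as 10 genes chosen by symbol, Icam1, Vcam1, Mcam, Alcam, Ncam1, L1cam, Bcam, Thy1, Nectin2 and Nectin3, and all 10 were found among the 54532 genes of the count table. Of these, 9 passed the filter on low counts with 13784 genes in all, and L1cam did not. The RNA of 7 libraries came from PanMeso cells, mesothelial cells from mouse pancreas that express enhanced green fluorescent protein (eGFP), a label that all 3 groups carry. CT1BA5 cells (n = 2) and BMFA3 cells (n = 2) were sorted by their eGFP from tumours that had formed in the pancreas after PanMeso cells were injected along with the pancreatic cancer cells of that name. Parental cells (n = 3) were not injected. In culture, PanMeso cells grew at 33 °C with insulin (870 nM), hydrocortisone (400 nM) and epidermal growth factor (3.3 nM) in the medium, and spent the last 3 days before use at 37 °C. Host strain, age and sex, the time in the tumour, and whether a library came from 1 tumour or a pool were not given in the sources used here. Growth in a tumour and passage through a sorter went together in both sorted groups and cannot be told apart.

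Cell adhesion molecules of the immunoglobulin superfamily are membrane proteins whose extracellular part is built from immunoglobulin-like domains. Some bind integrins on leukocytes (ICAM-1 and VCAM-1), some bind the same protein or a relative on the neighbouring cell (nectins, NCAM, ALCAM), and some bind the matrix (BCAM binds laminin). Mesothelial cells, which line body cavities, carry ICAM-1 and VCAM-1 on their surface, where leukocytes and tumour cells can attach.

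Levels are given as CPM, counts relative to the TMM-scaled library size, and a change as the log2 fold change with its standard error (SE). A gene was called when its Benjamini-Hochberg adjusted p over all tested genes was at most 0.05 in edgeR's quasi-likelihood test. Ranges of adjusted p over 17 alternatives, given for some members, include a test for a change above 1.5-fold. That test is harder for a small change to pass. In CT1BA5 against parental cells 5 of the 9 tested members rose, 3 fell and Thy1 missed the threshold. In BMFA3 against parental cells 4 rose and 4 fell, and Thy1 again missed the threshold. Calls were common among all genes. In CT1BA5 against parental cells 70.7% of the 13784 tested genes were called (35.5% higher and 35.1% lower), and in BMFA3 against parental cells 59.0% were called (29.2% higher and 29.9% lower), so a call by itself sets no member apart. Between the sorted groups, CT1BA5 against BMFA3, 2 members rose, 4 fell and Alcam, Ncam1 and Thy1 missed the threshold, beside 50.8% of all tested genes called (25.5% higher and 25.3% lower). The median log2 fold change of the tested members was 0.31 in CT1BA5 against parental cells, 0.38 in BMFA3 against parental cells and -0.076 in CT1BA5 against BMFA3 cells. Over all tested genes those medians were -0.00046, 0.0047 and -0.0061. With library size alone as the scaling, the median of all genes moved to -0.234 in CT1BA5 against parental cells, 25.4% of genes were called higher and 45.6% lower there, and 3 members rose and 3 fell. The same scaling moved the median to -0.163 in CT1BA5 against BMFA3 cells, with 17.2% of genes higher and 34.4% lower and still 2 members higher and 4 lower.

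**Figure D1:**
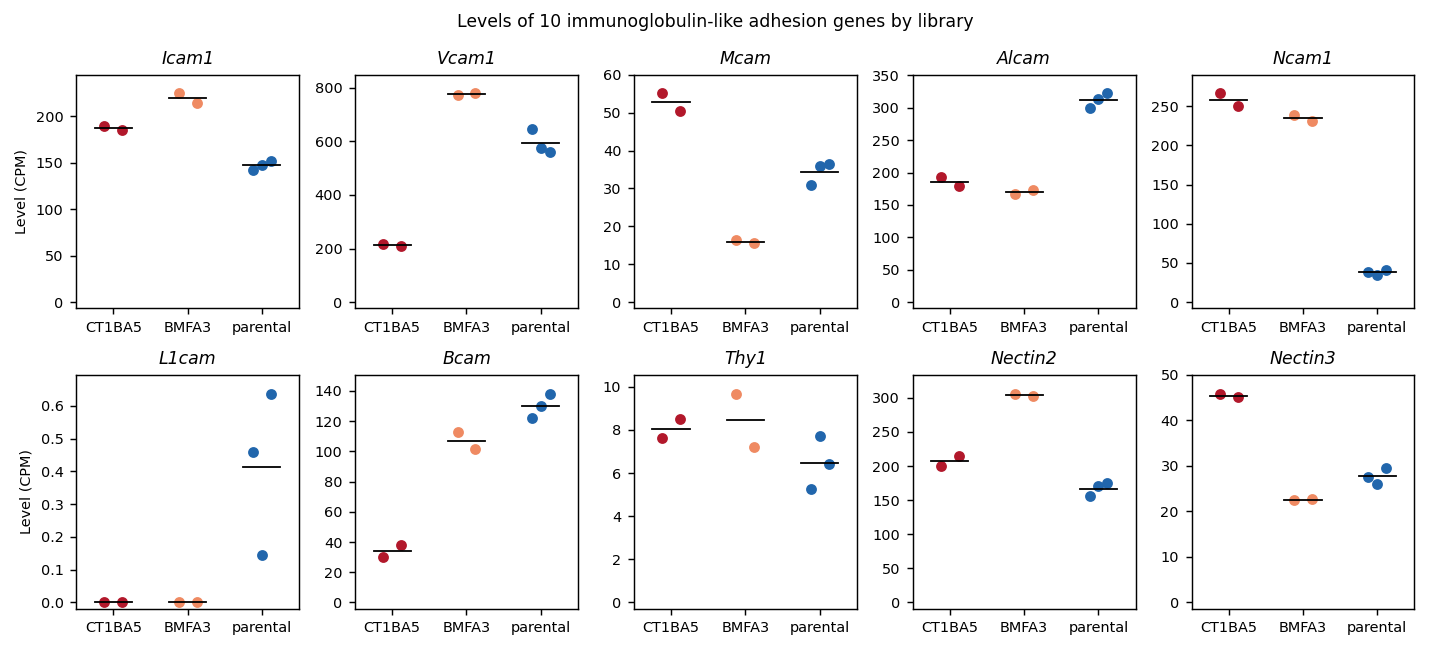
Level in CPM (y axis, from 0, a separate scale for each gene) of the 10 genes in CT1BA5 (n = 2), BMFA3 (n = 2) and parental (n = 3) libraries. Points are libraries and bars are group means; Ncam1 lies at 231 CPM or more in every sorted library and at 41.5 CPM or less in every parental one, and Vcam1, Mcam and Nectin3 have one sorted group above and the other below the parental libraries.

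Per kilobase of exon, which allows a rough comparison between genes, the order of the members differed between the groups. The length is that of all annotated exons of a gene together, and the length of the transcripts in these cells was not measured. In CT1BA5 cells Nectin2 came first at 59.5 ± 2.82 CPM per kb (mean ± SD, here and below), followed by Icam1 at 42.9 ± 0.549, Ncam1 at 29.8 ± 1.34, Alcam at 26.1 ± 1.39 and Vcam1 at 24.1 ± 0.503 CPM per kb, and no neighbours in that order overlapped. In BMFA3 cells Vcam1 at 87.4 ± 0.561 and Nectin2 at 87.2 ± 0.616 CPM per kb overlapped at the top, with Icam1 next at 50.3 ± 1.62 and Bcam at 33.4 ± 2.47 CPM per kb. In parental cells Vcam1 was highest at 66.8 ± 5.12 CPM per kb, and Nectin2, Alcam and Bcam followed at 47.8 ± 2.92, 43.7 ± 1.59 and 40.6 ± 2.56 CPM per kb, each overlapping its neighbour. Thy1 and Nectin3 came near the end of the order in every group, at 2.69 ± 0.202 and 3.57 ± 0.0468 CPM per kb in CT1BA5, 2.82 ± 0.581 and 1.77 ± 0.0102 in BMFA3 and 2.16 ± 0.412 and 2.17 ± 0.136 in parental cells, where they overlapped, and L1cam came last.

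The composition of the family by length-scaled level differed between the groups. Vcam1 made up 11 to 11.4% of the summed level in CT1BA5, 27.0 to 27.8% in BMFA3 and 24.6 to 29.4% in parental libraries. Ncam1 made up 13.4 to 14.3%, 8.46 to 8.56% and 1.61 to 1.86% in the same groups, and Nectin2 26.7 to 28.6%, 27.2 to 27.5% and 18.0 to 19.5%. The sum of all 10 genes was 215 CPM per kb in both CT1BA5 libraries, 315 to 322 in BMFA3 and 247 to 257 in parental libraries, so that BMFA3 libraries held the most and CT1BA5 libraries the least transcript of the family.

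**Figure D2:**
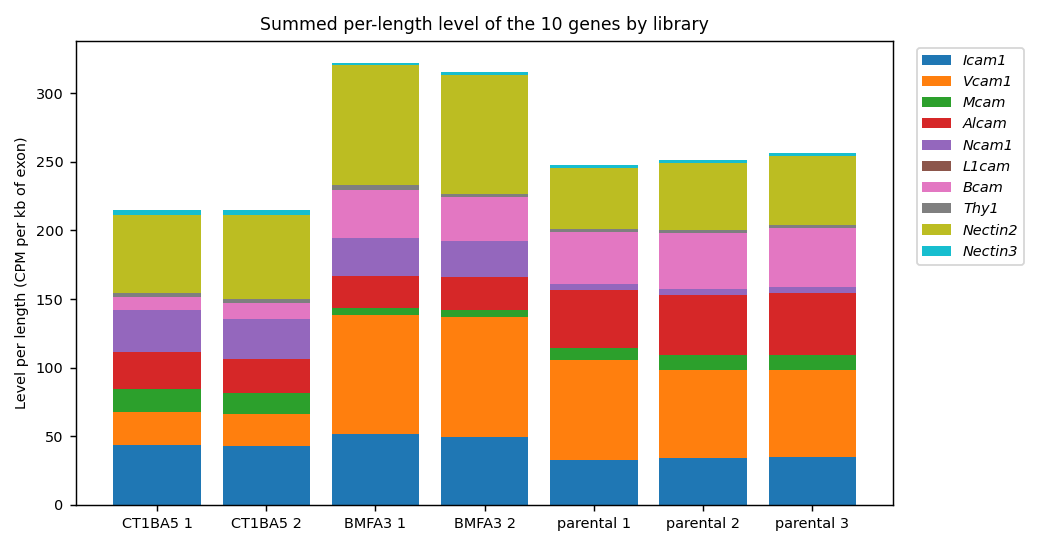
Summed level of the 10 genes per library in CPM per kb of exon (y axis, from 0), stacked by gene, for 2 CT1BA5, 2 BMFA3 and 3 parental libraries. The Vcam1 segment makes up 11 to 11.4% of CT1BA5 bars against 24.6 to 29.4% of parental bars, and the Ncam1 segment is wide in all 4 sorted libraries.

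The receptors for leukocyte integrins parted in CT1BA5 cells. Icam1 (ENSMUSG00000037405, chromosome 9, 21015985 to 21028817 on the plus strand, GRCm38 here and for all genes) encodes ICAM-1, the ligand of the leukocyte integrins LFA-1 and Mac-1. It stood at 189 and 186 CPM in CT1BA5 cells, 224 and 214 CPM in BMFA3 cells and at 142, 147 and 152 CPM in parental cells. The 3 groups did not overlap, with BMFA3 highest and parental cells lowest. Icam1 rose in CT1BA5 against parental cells by a log2 fold change of 0.35 ± 0.066 (SE, adjusted p = 1.02e-04) and in BMFA3 against parental cells by 0.58 ± 0.065 (SE, adjusted p = 2.64e-07). In CT1BA5 against BMFA3 cells it was lower by a smaller step, -0.23 ± 0.072 (SE, adjusted p = 0.0119). The first of these calls was lost with library size alone (log2 0.11, adjusted p = 0.137; 1.31e-06 to 1 over 17 alternatives), and the last without BMFA3 replicate 1 (log2 -0.20, adjusted p = 0.121; 1.69e-04 to 1 over 17 alternatives).

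Vcam1 (ENSMUSG00000027962, chromosome 3, 116109949 to 116129688 on the minus strand) encodes VCAM-1, the ligand of the integrin that pairs the Itga4 and Itgb1 chains. It stood at 217 and 211 CPM in CT1BA5 cells, 772 and 779 CPM in BMFA3 cells and at 645, 574 and 559.7 CPM in parental cells. Both CT1BA5 libraries lay below all parental libraries, and both BMFA3 libraries above them. Vcam1 fell in CT1BA5 against parental cells (-1.47 ± 0.071 SE, adjusted p = 4.02e-13) and rose in BMFA3 against parental cells (0.39 ± 0.067 SE, adjusted p = 5.34e-05). The direct comparison of CT1BA5 against BMFA3 cells gave -1.86 ± 0.077 (SE, adjusted p = 1.53e-13), a 3.63-fold lower level that was larger in size than the change of 93.8% of all tested genes. Set against Icam1 per kilobase of exon, Vcam1 was at a ratio of 0.558 to 0.565 in CT1BA5, 1.69 to 1.78 in BMFA3 and 1.81 to 2.23 in parental libraries. The ratio was below 1 in CT1BA5 libraries only, but this rests on the exon lengths used, 8870 bases for Vcam1 and 4360 for Icam1. In CPM, Vcam1 was above Icam1 in CT1BA5 cells too, at 217 and 211 against 189 and 186.

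The nectins bind each other across cell junctions and are linked to actin by afadin. Nectin-2, from Nectin2 (ENSMUSG00000062300, chromosome 7, 19716644 to 19750483 on the minus strand), is also a ligand of the lymphocyte receptors DNAM-1 and PVRIG. Nectin2 stood at 201 and 215 CPM in CT1BA5 cells, 306 and 303 CPM in BMFA3 cells and at 155, 171 and 175 CPM in parental cells. The groups did not overlap, and both sorted groups were above parental cells. It rose in CT1BA5 (0.31 ± 0.068 SE, adjusted p = 4.17e-04) and in BMFA3 cells (0.87 ± 0.067 SE, adjusted p = 1.19e-09) against parental cells, and was lower in CT1BA5 than in BMFA3 cells (-0.55 ± 0.075 SE, adjusted p = 4.61e-06). With library size alone its rise in CT1BA5 cells did not pass (log2 0.079, adjusted p = 0.302; 3.74e-05 to 1 over 17 alternatives).

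Nectin3 (ENSMUSG00000022656, chromosome 16, 46387706 to 46498525 on the minus strand), whose protein binds nectin-1 and nectin-2 across cells, stood at 45.9 and 45.1 CPM in CT1BA5 cells, 22.5 and 22.6 CPM in BMFA3 cells and at 27.6, 26.0 and 29.5 CPM in parental cells. CT1BA5 libraries were above and BMFA3 libraries below all parental libraries. It rose in CT1BA5 (0.71 ± 0.091 SE, adjusted p = 8.76e-07) and fell in BMFA3 cells (-0.30 ± 0.097 SE, adjusted p = 0.0118) against parental cells, and was 2.02-fold higher in CT1BA5 than in BMFA3 cells (1.01 ± 0.10 SE, adjusted p = 1.06e-07). The fall in BMFA3 cells was small and did not pass without parental replicate 3 (adjusted p = 0.0647), BMFA3 replicate 1 (0.0749) or BMFA3 replicate 2 (0.0636), and its adjusted p ran from 0.00286 to 1 over 17 alternatives. Nectin2 over Nectin3 per kilobase of exon was 16.0 to 17.4 in CT1BA5, 48.8 to 49.7 in BMFA3 and 20.6 to 23.9 in parental libraries.

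A RefSeq table on GRCm38.p6 held promoter windows of 7 of the 10 members (Vcam1, Ncam1 and Thy1 were not matched), each with 250 bases before and 50 after an annotated start. These starts differ from those of the gene coordinates given here. By those coordinates the windows of Nectin2, Nectin3, Alcam, Bcam and L1cam lie wholly inside the gene. The window of Mcam lies mostly inside it, so these windows may hold transcribed sequence. Icam1 and Nectin2, which stood above parental cells in both sorted groups, are shown first. Capitals mark matches to a short form of the NF-kB site (GGNNNTTCC), the GAS element bound by STAT factors (TTCNNNGAA) and the TATA box (TATAAA), searched on both strands. NF-kB is a transcription factor known to activate Icam1 in inflamed tissue. The windows are chr9:21015690-21015989, plus strand, for Icam1 and chr7:19749524-19749823, minus strand, for Nectin2.
Icam1: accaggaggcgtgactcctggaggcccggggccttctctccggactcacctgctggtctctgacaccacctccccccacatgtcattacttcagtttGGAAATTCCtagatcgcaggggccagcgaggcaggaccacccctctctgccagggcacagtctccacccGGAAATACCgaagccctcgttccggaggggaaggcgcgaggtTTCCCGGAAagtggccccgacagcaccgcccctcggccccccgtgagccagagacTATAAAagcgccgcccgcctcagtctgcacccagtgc
Nectin2: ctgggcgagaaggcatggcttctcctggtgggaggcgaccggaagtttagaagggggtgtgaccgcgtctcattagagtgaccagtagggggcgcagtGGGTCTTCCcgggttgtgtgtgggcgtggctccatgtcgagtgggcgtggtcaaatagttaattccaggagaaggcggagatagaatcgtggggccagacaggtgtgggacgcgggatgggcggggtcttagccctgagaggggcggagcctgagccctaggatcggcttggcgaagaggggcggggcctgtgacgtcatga
Icam1 held 2 matches to the short NF-kB form, at positions 98 to 106 and 167 to 175 of the window counted from its 5′ end, a GAS match at 209 to 217 and a TATA box at 264 to 269. The TATA match thus lies after the annotated start that the window uses, but before the Icam1 gene start at 21015985 given above. Nectin2 held 1 match to the short NF-kB form, at 99 to 107. Of 27025 promoter windows, 18.4% held at least 1 match to that form, 2.1% at least 2, 8.47% a GAS match and 14.2% a TATA box. None of the 6 windows of Mcam, Alcam, L1cam, Bcam and Nectin3 held a match to the short NF-kB form or to its longer form with 1 more leading G (found in 5.52% of windows and overlapping the short form), which says only that these letters are not in those windows.

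Mcam and Nectin3, which stood above parental cells in CT1BA5 and below them in BMFA3 cells, are shown next, with the GC box (GGGCGG, both strands) in capitals. The windows are chr9:44134408-44134707, plus strand, for Mcam and chr16:46496918-46497217, minus strand, for Nectin3.
Mcam: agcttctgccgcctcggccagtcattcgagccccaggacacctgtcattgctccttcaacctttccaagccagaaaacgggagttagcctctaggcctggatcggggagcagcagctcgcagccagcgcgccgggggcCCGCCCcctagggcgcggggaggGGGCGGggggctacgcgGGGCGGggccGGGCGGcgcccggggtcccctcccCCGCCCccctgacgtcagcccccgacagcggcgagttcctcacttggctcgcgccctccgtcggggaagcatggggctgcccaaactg
Nectin3: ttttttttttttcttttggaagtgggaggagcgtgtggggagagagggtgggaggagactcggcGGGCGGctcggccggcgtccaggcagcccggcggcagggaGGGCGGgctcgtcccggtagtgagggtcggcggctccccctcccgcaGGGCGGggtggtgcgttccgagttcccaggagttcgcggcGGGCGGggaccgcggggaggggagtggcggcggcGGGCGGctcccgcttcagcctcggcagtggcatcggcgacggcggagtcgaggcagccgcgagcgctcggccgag
Each of these windows held 5 GC boxes, and the motif was marked here for that reason, so nothing is drawn from the count. The other windows held GC boxes too, with 3 in Nectin2, 2 each in Icam1 and Alcam, 1 and 2 in L1cam and 1 in Bcam. Among all windows 35.9% held at least 1 GC box and 2.78% at least 5. Over the 7 members the window with the fewest G and C bases was that of Nectin2 (62.7%), and the median of all windows was 52.7%. The windows of Mcam (72.7%) and Nectin3 (73.7%) held the most.

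Mcam (ENSMUSG00000032135, chromosome 9, 44134469 to 44142727 on the plus strand) encodes MCAM or CD146, an adhesion molecule of endothelium and pericytes. It stood at 55.1 and 50.5 CPM in CT1BA5 cells, 16.4 and 15.6 CPM in BMFA3 cells and at 30.8, 35.8 and 36.4 CPM in parental cells. The groups did not overlap, with CT1BA5 highest and BMFA3 lowest. Mcam rose in CT1BA5 (0.61 ± 0.093 SE, adjusted p = 7.47e-06) and fell in BMFA3 cells (-1.11 ± 0.11 SE, adjusted p = 2.34e-08) against parental cells. It was 3.30-fold higher in CT1BA5 than in BMFA3 cells (1.72 ± 0.11 SE, adjusted p = 1.51e-10), a change larger in size than that of 93.1% of all tested genes.

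Alcam (ENSMUSG00000022636, chromosome 16, 52248996 to 52454074 on the minus strand) encodes ALCAM or CD166, which binds itself and the lymphocyte receptor CD6. It stood at 193 and 179 CPM in CT1BA5 cells, 167 and 173 CPM in BMFA3 cells and at 299.6, 313 and 322 CPM in parental cells. All 4 sorted libraries were below all parental libraries. Alcam fell in CT1BA5 (-0.75 ± 0.067 SE, adjusted p = 5.13e-09) and in BMFA3 cells (-0.87 ± 0.067 SE, adjusted p = 9.79e-10) against parental cells. CT1BA5 against BMFA3 did not pass the test (0.13 ± 0.072 SE, adjusted p = 0.157), with a 95% interval of the log2 difference from -0.03 to 0.28; with library size alone the value was -0.03 (adjusted p = 0.746).

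Bcam (ENSMUSG00000002980, chromosome 7, 19756131 to 19771016 on the minus strand) encodes the Lutheran glycoprotein, a receptor for laminin chains made by Lama5. It stood at 30.3 and 38.1 CPM in CT1BA5 cells, 112 and 101 CPM in BMFA3 cells and at 122, 129.9 and 138 CPM in parental cells. CT1BA5 libraries were far below all others, and BMFA3 libraries were close under the parental ones without overlap. Bcam fell 3.82-fold in CT1BA5 (-1.93 ± 0.094 SE, adjusted p = 4.29e-13) and 1.22-fold in BMFA3 cells (-0.28 ± 0.084 SE, adjusted p = 0.00665) against parental cells, and was lower in CT1BA5 than in BMFA3 cells (-1.65 ± 0.099 SE, adjusted p = 5.39e-11). The small fall in BMFA3 cells did not pass without BMFA3 replicate 2 (log2 -0.21, adjusted p = 0.14; 4.65e-04 to 1 over 17 alternatives).

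Ncam1 (ENSMUSG00000039542, chromosome 9, 49502136 to 49798925 on the minus strand) encodes NCAM or CD56, a molecule of neurons, muscle and, in humans, natural killer cells. It stood at 266 and 249.9 CPM in CT1BA5 cells, 239 and 231 CPM in BMFA3 cells and at 38.3, 35.1 and 41.5 CPM in parental cells. Every sorted library was several times above every parental library. Ncam1 rose 6.72-fold in CT1BA5 (2.75 ± 0.076 SE, adjusted p = 6.45e-17) and 6.12-fold in BMFA3 cells (2.61 ± 0.076 SE, adjusted p = 3.72e-16) against parental cells. These changes were larger in size than those of 91.8% and 95.3% of all tested genes in the same 2 comparisons, and among the 9 tested members they were the largest in size in both. CT1BA5 against BMFA3 did not pass the test (0.13 ± 0.080 SE, adjusted p = 0.169), with an interval from -0.03 to 0.30; with library size alone the value was -0.02 (adjusted p = 0.844). Ncam1 over Alcam per kilobase of exon stood at 1.14 to 1.15 in CT1BA5, 1.10 to 1.17 in BMFA3 and 0.0923 to 0.106 in parental libraries.

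L1cam (ENSMUSG00000031391, chromosome X, 73853778 to 73896105 on the minus strand) encodes L1, an adhesion molecule of axons and of some carcinomas. It had 0 counts in every CT1BA5 and BMFA3 library and 5, 2 and 13 counts in parental libraries, where its level was 0.460, 0.145 and 0.637 CPM. With 3 counts per group taken as the floor, L1cam was at least 4.19-fold lower in CT1BA5 and at least 4.67-fold lower in BMFA3 than in parental cells. Parental replicate 3 held 13 of the 20 parental counts, and without it the bounds were 2.68 and 2.99, an alternative chosen after the data were seen. A count of 0 allows up to 0.106 CPM over the CT1BA5 group and 0.0951 CPM over the BMFA3 group, and such floors cover counting error only. L1cam shares 100 exon bases with Arhgap4, which had a mean of 0.259 CPM; counting by strand is not stated. Its parental level was thus near the detection limit, and no test is given here.

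Thy1 (ENSMUSG00000032011, chromosome 9, 44043384 to 44048579 on the plus strand) encodes Thy-1 or CD90, a small glycolipid-anchored molecule of fibroblasts and T cells. It stood at 7.63 and 8.48 CPM in CT1BA5 cells, 9.68 and 7.22 CPM in BMFA3 cells and at 5.24, 7.71 and 6.42 CPM in parental cells. All 3 groups overlapped. No comparison passed the test, with a log2 fold change of 0.31 ± 0.19 (SE, adjusted p = 0.168) in CT1BA5 and 0.38 ± 0.19 (SE, adjusted p = 0.0932) in BMFA3 against parental cells and of -0.08 ± 0.21 (SE, adjusted p = 0.781) in CT1BA5 against BMFA3 cells. The 95% intervals ran from -0.10 to 0.71, -0.02 to 0.78 and -0.51 to 0.35 in that order. Without parental replicate 2 or BMFA3 replicate 2, the rise in BMFA3 against parental cells passed (adjusted p = 0.0488 and 0.041; 0.0410 to 1 over 17 alternatives).

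**Figure D3:**
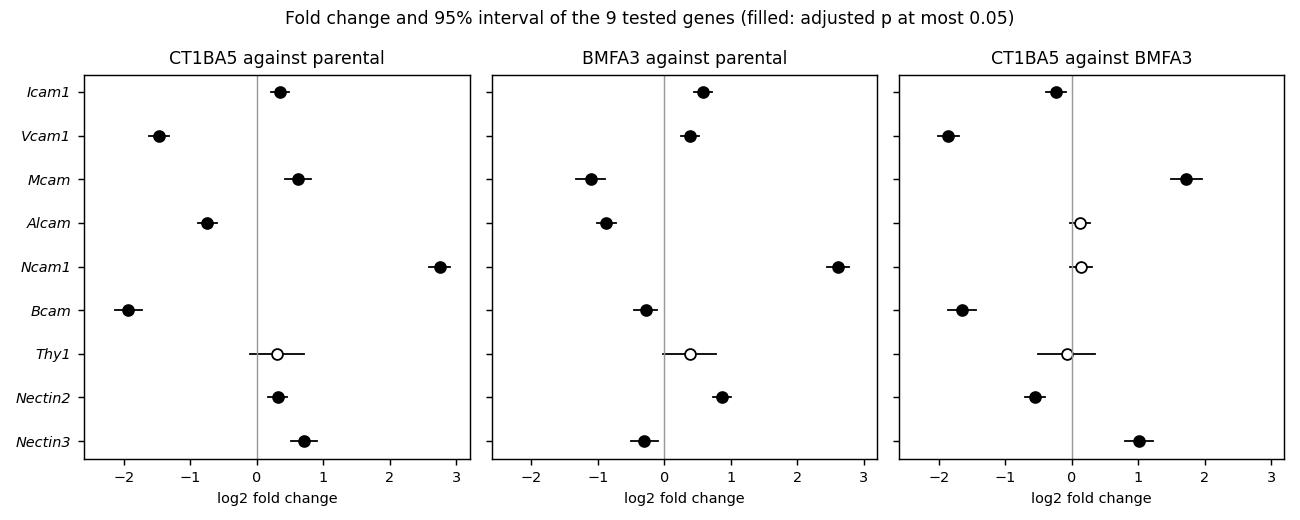
Log2 fold change (x axis) with its 95% interval for the 9 tested genes in CT1BA5 against parental, BMFA3 against parental and CT1BA5 against BMFA3 cells (edgeR, n = 2, 2 and 3 libraries). Filled points have an adjusted p of at most 0.05; Ncam1 lies at 2.75 and 2.61 in the first 2 panels, Vcam1, Mcam and Nectin3 lie on opposite sides of 0 there, and with library size alone as scaling the Icam1 and Nectin2 points of the first panel stay above 0 but do not pass.

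Both comparisons with parental cells share the parental libraries, so the values of the 2 sorted groups are given side by side and not as independent evidence. In bulk RNA a change in the share of cells that express a gene and a change in RNA per cell cannot be told apart. The replicates were close: the correlation of log2 CPM across genes, which are not independent replicates, was 0.989 to 0.993 within groups. Library totals were 14327365 and 16981596 counts in CT1BA5, 14792189 and 16501058 in BMFA3 and 10096839 to 19210598 in parental libraries. Cytosolic ribosomal protein genes took 8.50 to 9.81% of counts in CT1BA5, 6.85 to 6.91% in BMFA3 and 4.34 to 5.0% in parental libraries, and mitochondrially encoded genes 0.936 to 1.04%, 0.789 to 0.853% and 0.416 to 0.466%. These shares moved with the groups, and their part in the results was not tested.

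Further immunoglobulin-like adhesion genes came from a list of 40, of which 25 were tested. Against parental cells, 11 rose, 8 fell and 6 missed the threshold in CT1BA5 (median log2 0.20, 35.5% of all genes higher, 35.1% lower). In BMFA3 cells 13 rose, 11 fell and 1 missed the threshold (median 0.17, 29.2% of all genes higher, 29.9% lower). Nectin1, a partner of nectin-3, stood at 104 and 95.5 CPM in CT1BA5 cells, 52.8 and 52.8 CPM in BMFA3 cells and at 21.8, 20.7 and 23.3 CPM in parental cells. Cd200, whose product restrains myeloid cells, stood at 244 and 255 CPM in CT1BA5 cells, 119.7 and 115 CPM in BMFA3 cells and at 40.8, 46.4 and 45.6 CPM in parental cells. Both genes rose in each sorted group and were highest in CT1BA5 cells, with log2 fold changes against parental cells of 2.18 ± 0.079 and 1.26 ± 0.082 for Nectin1 and 2.49 ± 0.073 and 1.40 ± 0.074 (SE) for Cd200 in CT1BA5 and BMFA3 cells.

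Chl1, a close homologue of L1cam, stood at 0.129 and 0.0778 CPM in CT1BA5 cells, 15.0 and 15.2 CPM in BMFA3 cells and at 1.01, 0.800 and 1.32 CPM in parental cells. It was thus high in BMFA3 libraries only, with a log2 fold change of -7.05 ± 0.39 (SE, adjusted p = 1.67e-11) in CT1BA5 against BMFA3 cells. Cxadr, the coxsackievirus and adenovirus receptor of tight junctions, stood at 85.3 and 77.1 CPM in CT1BA5 cells, 386 and 399 CPM in BMFA3 cells and at 382, 406 and 427 CPM in parental cells. It fell in CT1BA5 against parental cells (-2.32 ± 0.076 SE, adjusted p = 7.51e-16), and BMFA3 against parental cells did not pass (-0.05 ± 0.068 SE, adjusted p = 0.580, interval -0.19 to 0.10). Cxadr shares 695 exon bases with Btg3 on the opposite strand, so its values are uncertain to that extent. Emb, which encodes embigin, rose in both sorted groups against parental cells, with a log2 fold change of 1.18 ± 0.12 in CT1BA5 and 1.79 ± 0.11 (SE) in BMFA3 cells.

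**Figure D4:**
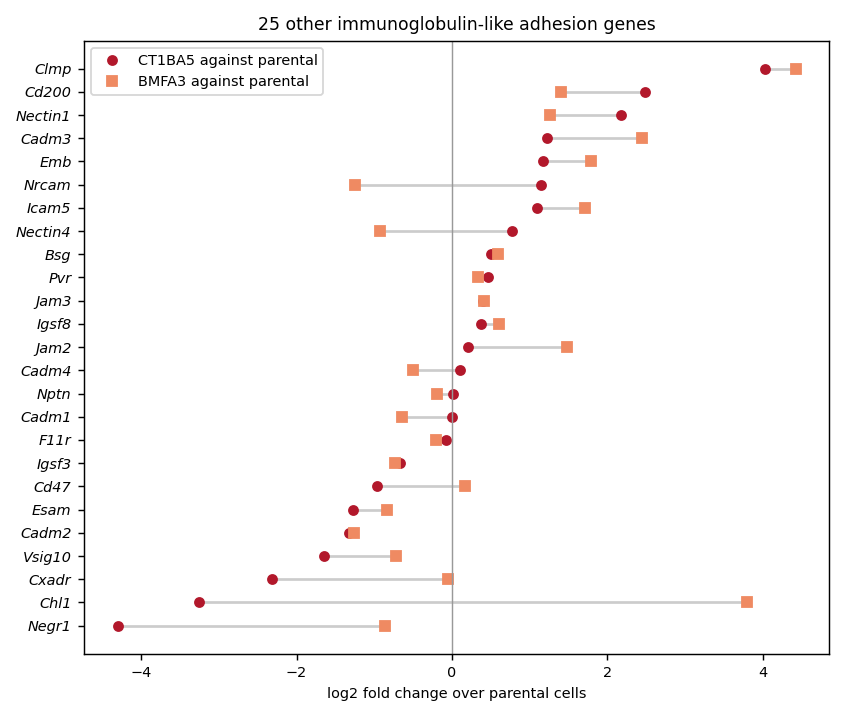
Log2 fold change over parental cells (x axis) of the 25 other tested adhesion genes (y axis, ordered by the CT1BA5 value), with circles for CT1BA5 and squares for BMFA3 cells joined by a line. Both comparisons share the 3 parental libraries; Chl1 lies at -3.25 in CT1BA5 and 3.80 in BMFA3 cells, and Cxadr at -2.32 and -0.05.

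Among 11 integrin chains that bind members of the family or act beside them, 7 were tested. Of these, 5 rose, 1 fell and 1 missed the threshold in CT1BA5 (median log2 1.07, 35.5% of all genes higher, 35.1% lower). In BMFA3 cells 5 rose, 2 fell and 0 missed the threshold (median 1.00, 29.2% of all genes higher, 29.9% lower). Both counts are against parental cells. Itga5, the alpha chain of the fibronectin receptor, stood at 1643 and 1593 CPM in CT1BA5 cells, 652 and 637 CPM in BMFA3 cells and at 147, 152 and 147 CPM in parental cells. Itgb3, a chain of the vitronectin receptor, stood at 164 and 150.5 CPM in CT1BA5 cells, 56.6 and 57.9 CPM in BMFA3 cells and at 30.6, 28.5 and 27.2 CPM in parental cells, and Itgb1, the beta chain shared by many integrins, at 2281 and 2216 CPM in CT1BA5 cells, 1799 and 1841 CPM in BMFA3 cells and at 1341, 1380.4 and 1382 CPM in parental cells. All 3 were lowest in parental and highest in CT1BA5 libraries. Itga5 rose 10.9-fold in CT1BA5 (3.45 ± 0.064 SE, adjusted p = 1.68e-19) and 4.34-fold in BMFA3 cells (2.12 ± 0.062 SE, adjusted p = 3.72e-16) against parental cells. The chains of LFA-1 and Mac-1, the leukocyte receptors of ICAM-1, were near or at 0: Itgam had 0 counts in every library, Itgal at most 4 counts and Itgb2 at most 28.

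Of 11 other binding partners 6 were tested. Relative to parental cells, 4 rose, 2 fell and 0 missed the threshold in CT1BA5 (median log2 0.45, 35.5% of all genes higher, 35.1% lower). In BMFA3 cells 3 rose, 3 fell and 0 missed the threshold (median 0.51, 29.2% of all genes higher, 29.9% lower). Lama5, the laminin chain that BCAM binds, stood at 74.4 and 57.0 CPM in CT1BA5 cells, 152 and 143 CPM in BMFA3 cells and at 248, 238 and 307 CPM in parental cells. It fell in CT1BA5 (-2.01 ± 0.11 SE, adjusted p = 4.20e-12) and in BMFA3 cells (-0.84 ± 0.11 SE, adjusted p = 1.04e-06) against parental cells. Fgfr1, a growth factor receptor that NCAM can engage, stood at 119 and 109 CPM in CT1BA5 cells, 35.1 and 34.2 CPM in BMFA3 cells and at 13.3, 13.6 and 15.7 CPM in parental cells. It rose 7.96-fold in CT1BA5 and 2.41-fold in BMFA3 cells against parental cells (log2 2.99 ± 0.087 SE, adjusted p = 1.36e-16 and 1.27 ± 0.095 SE, adjusted p = 6.41e-10). Egfr, the epidermal growth factor receptor gene, rose by 0.73 ± 0.079 (SE, log2) in CT1BA5 and 1.22 ± 0.078 in BMFA3 cells, and Lgals3, the galectin-3 gene, fell in both, by a log2 fold change of -0.86 ± 0.079 in CT1BA5 and -0.28 ± 0.075 (SE) in BMFA3 cells. The lymphocyte receptor genes Cd6, Cd226, Cd96 and Pvrig had 0 counts in every library.

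All 13 genes of adaptors and actin linkers were tested. Among them 6 rose, 5 fell and 2 missed the threshold in CT1BA5 (median log2 0.16, 35.5% of all genes higher, 35.1% lower). In BMFA3 cells 6 rose, 3 fell and 4 missed the threshold (median 0.14, 29.2% of all genes higher, 29.9% lower). Both counts are against parental cells. Ezr and Msn encode ezrin and moesin, which tie ICAM and VCAM tails to actin. Ezr stood at 234 and 225 CPM in CT1BA5 cells, 782 and 795 CPM in BMFA3 cells and at 1580.0, 1823 and 1863 CPM in parental cells. Msn stood at 2301 and 2062 CPM in CT1BA5 cells, 1661 and 1697 CPM in BMFA3 cells and at 873, 940.1 and 905 CPM in parental cells. Ezrin transcript was thus highest in parental libraries and moesin transcript highest in CT1BA5 libraries, with log2 fold changes in CT1BA5 against parental cells of -2.94 ± 0.082 (SE, adjusted p = 6.42e-17) for Ezr and 1.27 ± 0.063 (SE, adjusted p = 5.49e-13) for Msn. Afdn, the afadin gene of nectin junctions, stood at 56.4 and 46.7 CPM in CT1BA5 cells, 92.5 and 94.1 CPM in BMFA3 cells and at 143, 157 and 163 CPM in parental cells. It fell in CT1BA5 (-1.58 ± 0.086 SE, adjusted p = 2.42e-12) and in BMFA3 cells (-0.73 ± 0.081 SE, adjusted p = 2.02e-07) against parental cells. Ctnnb1, the beta-catenin gene, rose in both groups, by a log2 fold change of 0.63 ± 0.062 in CT1BA5 and 0.75 ± 0.062 (SE) in BMFA3 cells.

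Of 11 genes of membrane proteases and enzymes that cut or modify the family, 10 were tested. Set against parental cells, 9 rose, 1 fell and 0 missed the threshold in CT1BA5 (median log2 1.89, 35.5% of all genes higher, 35.1% lower). In BMFA3 cells 8 rose, 1 fell and 1 missed the threshold (median 0.94, 29.2% of all genes higher, 29.9% lower). In these medians Mmp9 and St8sia2, which had 0 parental counts, stand at their lower bounds in CT1BA5 cells, and Mmp9 does so in BMFA3 cells. St8sia2, with 1 count in BMFA3 libraries, was left out of the BMFA3 median. Mmp2 and Mmp14 encode a gelatinase and its membrane-bound activator. Mmp2 stood at 641 and 628 CPM in CT1BA5 cells, 304 and 298 CPM in BMFA3 cells and at 65.0, 67.8 and 75.7 CPM in parental cells. Mmp14 stood at 1163 and 1218 CPM in CT1BA5 cells, 537 and 554 CPM in BMFA3 cells and at 321, 331 and 337 CPM in parental cells. Both were lowest in parental and highest in CT1BA5 libraries. Mmp9, a second gelatinase gene, had a level in CT1BA5 cells of 671 and 645 CPM and a level in BMFA3 cells of 7.55 and 9.34 CPM, with 0 counts in parental libraries. Adam10, a sheddase gene of L1, was the gene of the list that fell in both groups, by a log2 fold change of -0.89 ± 0.065 (SE, adjusted p = 2.34e-10) in CT1BA5 and -0.33 ± 0.064 (SE, adjusted p = 1.69e-04) in BMFA3 against parental cells; it was singled out after its values were seen. Bace1, the beta-secretase gene, rose in CT1BA5 (1.07 ± 0.079 SE, adjusted p = 2.92e-10) and BMFA3 cells (1.01 ± 0.079 SE, adjusted p = 1.31e-09) against parental cells, but shares 975 exon bases with Rnf214 on the opposite strand.

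NF-kB and interferon signalling genes, a list of 17, were all tested. Beside parental cells, 7 rose, 4 fell and 6 missed the threshold in CT1BA5 (median log2 -0.01, 35.5% of all genes higher, 35.1% lower). In BMFA3 cells 9 rose, 4 fell and 4 missed the threshold (median 0.30, 29.2% of all genes higher, 29.9% lower). The feedback inhibitor genes Nfkbia and Tnfaip3 rose in both groups, Tnfaip3 by a log2 fold change of 1.90 ± 0.079 (SE, adjusted p = 3.65e-14) in CT1BA5 and 1.83 ± 0.079 (SE, adjusted p = 1.57e-13) in BMFA3 cells. Nfkbia stood at 109 and 111 CPM in CT1BA5 cells, 160.3 and 162 CPM in BMFA3 cells and at 44.3, 46.9 and 44.7 CPM in parental cells, with BMFA3 highest, as for Icam1. Il1r1, the receptor gene of interleukin-1, stood at 25.8 and 17.2 CPM in CT1BA5 cells, 191 and 204 CPM in BMFA3 cells and at 65.6, 67.6 and 78.1 CPM in parental cells. Its groups were ordered as those of Vcam1, with BMFA3 highest and CT1BA5 lowest, and CT1BA5 against BMFA3 gave a log2 fold change of -3.19 ± 0.13 (SE, adjusted p = 9.08e-14). Tnfrsf1b, a receptor gene of tumour necrosis factor, stood at 91.5 and 97.5 CPM in CT1BA5 cells, 174 and 176 CPM in BMFA3 cells and at 78.2, 82.7 and 87.2 CPM in parental cells. It was 2.11-fold higher in BMFA3 than in parental cells (1.08 ± 0.069 SE, adjusted p = 6.52e-11).

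**Figure D5:**
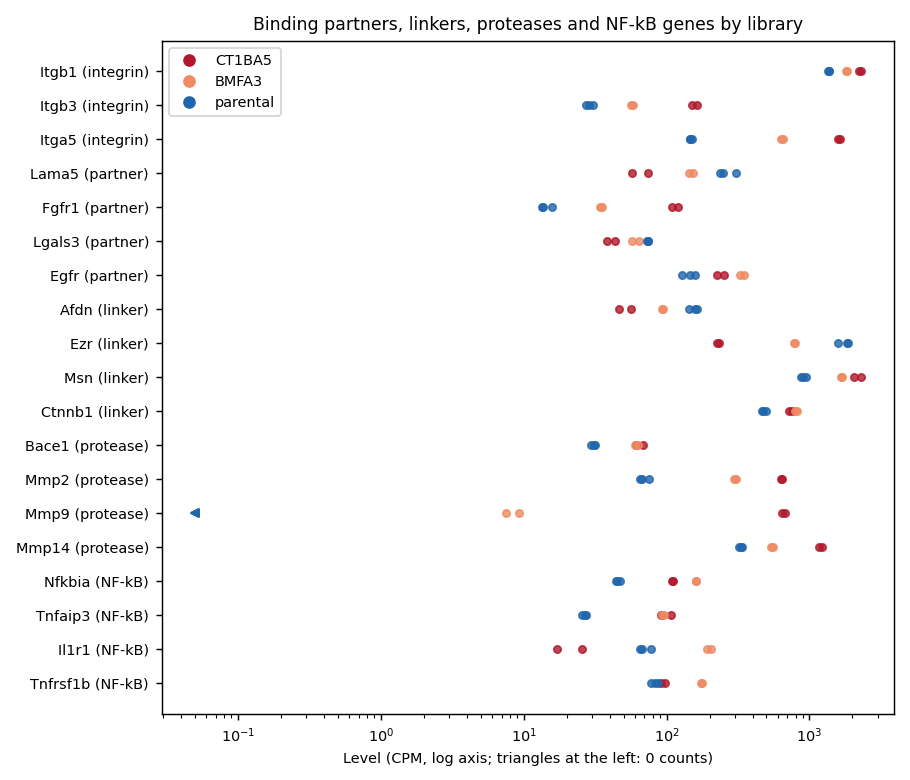
Level in CPM (x axis, log scale) of the 19 genes named from the lists of binding partners, linkers, proteases and NF-kB genes, one point for each CT1BA5 (n = 2), BMFA3 (n = 2) and parental (n = 3) library. A triangle at the left marks 0 counts; Itga5 lies at 1593 to 1643 CPM in CT1BA5 libraries and 147 to 152 CPM in parental libraries, and Il1r1 and Ezr are lowest in CT1BA5 libraries.

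The labelled cell type and other possible sources of these transcripts were checked with marker lists that leave out the family members themselves. Calls are from the same test, in which 35.5% of all genes were higher and 35.1% lower in CT1BA5 than in parental cells. For BMFA3 against parental cells those shares were 29.2% and 29.9%. The 13 mesothelial markers, all of them tested, summed to 955 to 973 CPM in CT1BA5, 2104 to 2112 CPM in BMFA3 and 11786 to 12924 CPM in parental libraries. All 13 were lower in CT1BA5 than in parental cells, and 11 were lower in BMFA3 than in parental cells. The other 2 were Wt1 and Bnc1, which are transcription factor genes. Wt1 averaged 118 CPM in CT1BA5, 257 CPM in BMFA3 and 252 CPM in parental cells, and Bnc1 64.5 CPM in CT1BA5, 127 CPM in BMFA3 and 127 CPM in parental cells. Most of the sum was Msln, the mesothelin gene, with Upk3b, Upk1b and Krt19; Msln averaged 409 CPM in CT1BA5, 623 CPM in BMFA3 and 5088 CPM in parental cells. Alcam and Bcam were also lower in both sorted groups, and the part of the marker change in their results was not tested.

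Of 12 leukocyte markers 8 had 0 counts in every library, among them Ptprc, the CD45 gene, and Cd3e, Cd3d and Cd3g of T cells; the list summed to 1.94 to 2.57 CPM in CT1BA5, 1.77 to 1.85 CPM in BMFA3 and 0.441 to 1.38 CPM in parental libraries. Itgb2, the only one of them tested, was higher in both sorted groups than in parental cells. Of 14 macrophage and neutrophil markers 5 had 0 counts everywhere (Itgam, C1qa, C1qb, C1qc and S100a9) and Adgre1, Fcgr1 and Ly6g at most 2 counts in a library. The list summed to 31.4 to 33.1 CPM in CT1BA5, 40.9 to 45.7 CPM in BMFA3 and 23.8 to 31.4 CPM in parental libraries. Of its 4 tested genes, Csf1r, Cd68 and S100a8 were higher in CT1BA5 and Csf1r and S100a8 higher in BMFA3 than in parental cells. S100a8, a neutrophil and macrophage gene, had 18 and 29 counts in CT1BA5, 105 and 66 in BMFA3 and 0 in every parental library. Csf1r, the receptor gene of macrophage colony-stimulating factor, averaged 5.56 CPM in CT1BA5, 8.28 CPM in BMFA3 and 3.37 CPM in parental cells. Icam1, Nectin2 and Ncam1 were also higher in both sorted groups, and the part of these transcripts in their results was not tested.

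Of 12 endothelial markers Tie1 had 0 counts, Cdh5 and Emcn at most 2 and Pecam1 at most 5 counts in a library, and the list summed to 55.3 to 58.2 CPM in CT1BA5, 71.6 to 73.6 CPM in BMFA3 and 172 to 187 CPM in parental libraries, most of it Kdr and Esam. Of the 4 tested, Kdr and Esam were lower and Egfl7 was higher in each sorted group than in parental cells. Of 9 pericyte and stellate markers without Mcam, Abcc9 had 0 counts and Kcnj8 and Higd1b at most 1; the list summed to 221 to 251 CPM in CT1BA5, 173 to 179 CPM in BMFA3 and 80.4 to 85.0 CPM in parental libraries, and Pdgfrb and Notch3 made up most of it. All 6 tested genes were higher in CT1BA5 and 4 were higher in BMFA3 than in parental cells. Cspg4, the NG2 gene of pericytes, had 71 counts in each CT1BA5 library and at most 1 in a BMFA3 and 2 in a parental library. The sum was highest in CT1BA5 libraries, as was Mcam, but in BMFA3 libraries the sum was above and Mcam below the parental libraries. The part of these transcripts in the Mcam result was not tested.

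Of 8 neural and Schwann cell markers without Ncam1 and L1cam, Sox10 had at most 4 counts, and the list, mostly Mbp, summed to 53.0 to 53.6 CPM in CT1BA5, 72.6 to 72.7 CPM in BMFA3 and 134 to 151 CPM in parental libraries. Mbp was lower in both sorted groups than in parental cells. The part of these transcripts in the Ncam1 result was not tested. Of 11 tumour epithelium markers Esrp1, Grhl2, Tff1 and Pdx1 had 0 counts and Epcam at most 5; the list summed to 16.0 to 19.6 CPM in CT1BA5, 16.1 to 19.2 CPM in BMFA3 and 61.5 to 77.9 CPM in parental libraries. Of the 5 tested, Krt7 and Cdh1 were lower in both sorted groups than in parental cells. Krt20, a keratin gene, was higher in both and had 56 and 62 counts in CT1BA5, 26 and 23 in BMFA3 and 6 to 12 in parental libraries. Cldn4, a claudin gene, was higher in CT1BA5 than in parental cells, with 14 and 12 counts in CT1BA5 and 0, 0 and 3 in parental libraries, and Muc1 was higher in BMFA3 than in parental cells.

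The 11 fibroblast markers without Thy1 summed to 10453 to 10522 CPM in CT1BA5, 7196 to 7322 CPM in BMFA3 and 4808 to 5454 CPM in parental libraries. Of the 10 tested, 8 were higher and 2 lower in CT1BA5, and 6 higher and 3 lower in BMFA3, than in parental cells. Col1a1, a chain of collagen I, averaged 5324 CPM in CT1BA5, 2833 CPM in BMFA3 and 1307 CPM in parental cells, and Acta2, the smooth muscle actin gene, 1712 CPM in CT1BA5, 524 CPM in BMFA3 and 154 CPM in parental cells. The other way went Col3a1, the collagen III gene, at 797 CPM in CT1BA5, 1716 CPM in BMFA3 and 2347 CPM in parental cells, and Dcn, the decorin gene, at 35.9 CPM in CT1BA5, 213 CPM in BMFA3 and 483 CPM in parental cells.

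Each tested member was also set beside the 9053 or 9054 other genes whose mean reached 10 CPM, by Pearson correlation of log2 CPM over the 7 libraries, as a description with no test, since 3 group means set most of each value. The genes most like Vcam1 were Adamts9 and Cdhr1 (r = 0.999 and 0.998). Adamts9, a metalloprotease gene, stood at 1.65 CPM in CT1BA5, 43.9 CPM in BMFA3 and 19.9 CPM in parental cells (means). The genes most like Ncam1 were Pdzrn3 and Pfkfb4 (r = 1.000 and 0.999), with Pdzrn3 at 79.2, 69.8 and 6.94 CPM in the same groups. For Nectin2 they were Has1, a hyaluronan synthase gene, and Isyna1 (r = 0.997 each), for Icam1 Rrbp1 and Matn2 (r = 0.997 and 0.996), and for Mcam Ss18 and Smtn (r = 0.995 and 0.993). For Alcam they were Cast and Parp11, for Bcam Fip1l1 and Wnt4, and for Nectin3 Hr (r of 0.996 to 0.998). Such values were common, with 718 genes above 0.95 for Ncam1 and 203 for Vcam1, but only 1 gene, Exoc3 (r = 0.987), reached 0.95 for Thy1, whose groups overlap; Mtmr14 came next for Thy1 (r = 0.936).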

How the data were processed

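RNA sequencing of 7 libraries gave 1 table of raw gene counts as deposited, with whole numbers per Ensembl mouse gene. CASAVA, DESeq2 1.24.0 and mm10 are named per the submitters' processing notes, with no role; the aligner, counter, annotation release and strand setting were not given in the sources used here. Symbols, coordinates and union exon lengths come from GENCODE M21 (GRCm38), which matched 54495 of 54532 identifiers. Genes passed edgeR's filterByExpr (minimum count 10; 13784 genes, 99.9% of counts). Counts were TMM-scaled (factors 0.897 to 1.08) and a 3-group model over all libraries was tested with the quasi-likelihood method of edgeR 4.0.16 (R 4.3.3), with p-values adjusted by Benjamini-Hochberg over all genes and called at 0.05. The SE is the size of the log2 fold change divided by the square root of F. All groups share one spread, as groups of 2 give little alone. Nothing in the labels tells if the replicates were grown or taken separately, so p-values measure the spread between these libraries; within groups that was 2.19 to 4.69 times sampling noise. The 10 members and all lists were chosen with earlier results of these data known. All members are named; of 6 other lists the 3 genes with the smallest p in each comparison with parental cells, and for likeness the 2 most correlated genes (1 of these for Nectin3, and single genes of the neural list, are not reported here). Of the members, 7 share exon bases with another gene, none of which had a mean above 0.259 CPM. The test was tried on simulated counts over 13784 genes, with 50 genes changed at each fold and the rest equal between groups. For BMFA3 against parental cells it recovered 36.7% of 1.3-fold, 72.3% of 1.5-fold and 91.5% of 4-fold changes (5.63% of calls false). For CT1BA5 against parental cells it recovered 38.8%, 66.7% and 95.7% (6.29% false). A far larger share of genes was called in the real data, so these rates need not hold there. Alternatives were RLE or no scaling, other filters, DESeq2 1.42.0, limma-voom (limma 3.58.1), stricter thresholds, compared groups alone, a replicate block and each library left out.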

Additional observations from a re-analysis of the deposited data

Results flagged for a closer look

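The change against parental cells differed between the sorted groups for 6 of the 9 tested members, by the edgeR test of CT1BA5 against BMFA3 cells, in which the parental term cancels (50.8% of all tested genes passed it). In all 6, both CT1BA5 libraries lay on the same side of both BMFA3 libraries. The same held for Alcam and Ncam1, which were not called, so it does not set the 6 apart. The share of all tested genes whose libraries part in this way is not given here, so nothing is drawn from this separation. The log2 difference, CT1BA5 minus BMFA3, was -1.86 for Vcam1, -1.65 for Bcam, -0.55 for Nectin2 and -0.23 for Icam1, and 1.72 for Mcam and 1.01 for Nectin3. For Vcam1, Mcam and Nectin3 the changes against parental cells had opposite signs in the 2 groups.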

How the results depend on the processing

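Each comparison was recomputed under 17 alternatives. Of 102 recomputed counts of called members, 95 stayed within 1.5 times the reported count, and of the recomputed member changes 436 kept their direction and call or remained uncalled, 21 lost the call, 2 gained it and none that was called changed sign. With changes of more than 1.5-fold required (glmTreat), the members higher and lower were 2 and 2 in BMFA3 against parental cells (10.8% and 12.1% of all genes). In CT1BA5 against parental cells 1 was higher (16.7% of all genes), and the 3 lower members, Vcam1, Alcam and Bcam, kept their calls (19.7%). In CT1BA5 against BMFA3 cells 2 were lower (8.01%), and the 2 higher members, Mcam and Nectin3, kept their calls (5.7%). With library size alone, 3 members were higher in CT1BA5 against parental cells; the lost calls were Icam1 and Nectin2. Leaving out 1 library, the members lower in BMFA3 against parental cells numbered 2 to 5; the value of 2 came without BMFA3 replicate 2 (23.3% of all genes lower), and that of 5 without CT1BA5 replicate 2 (30.2%), where L1cam passed the filter. With the replicate number as a block, 2 members were lower in BMFA3 against parental cells, beside 25.9% of all genes (Bcam and Nectin3 lost their calls, adjusted p = 0.0648 and 0.0913), and no other call of a member changed. Same-numbered libraries did not deviate together (correlations of -0.101 to 0.0769), so the numbers were not taken to pair libraries. The cause of these changes was not tested. Depth limits L1cam, with 20 counts in all, and Thy1, with 57 to 159 counts per library. With 0 counts in both sorted groups, L1cam could pass a filter only through its parental counts. A call of L1cam, without CT1BA5 replicate 2 or without a count filter, could thus only be lower, and nothing is drawn from it.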
